A study of Homo sapiens with 12 samples.

Results

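The ribosomal RNA (rRNA) entries are the 3 rows of type rRNA in each of the 2 deposited tables of small noncoding RNA from Mono Mac 6 (MM6) cells. They were taken by their type label alone and are named 5S, LSU-rRNA_Hsa and SSU-rRNA_Hsa, called 5S, LSU and SSU here. They are 3 of 1231 entries in the table without lipopolysaccharide (LPS) and 3 of 1139 entries in the table with LPS. The 5S entry had the highest mean of every entry in all 4 groups, and the rRNA entries together held 16.8% of the summed signal in wild-type and 22.5% in 5-LO knockout cells without LPS.

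MM6 is a human monocytic cell line. The study compared wild-type cells with 5-LOΔ MM6 cells, which were grown from single cells after lentiviral CRISPR/Cas9 editing and puromycin selection and carry frameshifts in both copies of ALOX5 (labelled ALOX-5 -/-), the gene of 5-lipoxygenase (5-LO), an enzyme of leukotriene synthesis. Cells of all 4 groups received 1 ng/mL TGF-beta and 50 nM calcitriol, per the labels for 72 h (the methods text gives a longer time), and 2 of the groups were also stimulated with 1 µg/mL LPS for 6 h. Each group had 3 libraries (12 in all). More than one knockout clone was in use and no label ties a library to a clone. The wild type is the parental line without vector, and ALOX5 mRNA and monocyte marker mRNAs are outside what small RNA sequencing of these tables measures.

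Ribosomes hold 4 rRNAs. In human cells RNA polymerase I makes a long precursor that is cut into the 18S rRNA of the small subunit and the 5.8S and 28S rRNAs of the large subunit, while RNA polymerase III transcribes the 5S rRNA of the large subunit from genes of its own. In small RNA libraries rRNA reads are usually treated as background, because ribosomes carry most of the RNA in a cell and its pieces enter the library beside the regulatory RNAs. SSU and LSU are the names of the small and large subunit rRNA in repeat annotation, and 5.8S and mitochondrial rRNAs were not analysed here.

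The entries differ in how they relate to the size window of the libraries. The cDNA was cut from the gel at 130 to 260 bp with 126 bp of linkers, which leaves inserts of 4 to 134 nt. RefSeq lists 5S genes of 121 bases, 18S genes of 1869 bases and 28S genes of 5054 to 5077 bases. A whole 5S molecule therefore lies inside the window, although the single-end reads are shorter than it, whereas whole 18S and 28S rRNAs do not. Which loci or transcripts the reads of each entry came from was not tested.

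The 5S entry is a class name and not a single gene. GENCODE lists 17 genes of 5S rRNA and 518 further 5S-like loci, mostly pseudogenes, and the table does not tell through which of them a read was assigned.

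The values are the authors' means of normalized counts over the 3 libraries of a group, so that no SD can be given and no test between genotypes can be computed from them. The authors' own test results, which are deposited beside the means, were not used, and each difference below is one between 2 means without a replicate check. Without LPS the wild-type means summed to 10757419 and the knockout means to 12142907, and with LPS to 9680900 and 10165615. Counting intervals (95%) were built from size factors recovered from the lowest means, and they cover the sampling of reads and not the spread between cultures. At these levels they are narrow, with half-widths of 0.00211 to 0.0148 percentage points for the share of a single rRNA entry, so counting error does not limit any rRNA value given here. Since these are bulk samples, fewer cells of one kind and less RNA per cell cannot be told apart.

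Without LPS, wild-type cells had a 5S mean of 1665280 normalized counts and 5-LOΔ MM6 cells one of 2600090. LSU had 74454.7 and 86115.7 normalized counts, and SSU had 66232 and 48286.8. Thus 5S and LSU were higher and SSU was lower in the knockout mean. 5S ranked first in both columns, LSU ranked 30 in wild-type and 24 in knockout cells, and SSU ranked 33 and 39. The entries around the latter pair are all snoRNAs, which guide chemical modification of rRNA and other RNAs. U32A (76895.5 in wild-type cells) stood directly above LSU and U52 (74447.1) directly below it, and U83A (70486.6) and U18A (63938.4) stood on either side of SSU.

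With LPS, the 5S mean was 1522660 in wild-type cells against 2091230 in the knockout, again the first rank in both columns. LSU had 63134.8 and 76161.6 (ranks 32 and 23), and SSU had 58119.7 and 56145.3 (ranks 33 and 31). U52 stood above LSU and U18A below SSU in the wild-type column, with no other entry between LSU and SSU. The order of the members by mean, 5S over LSU over SSU, was the same in all 4 groups.

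**Figure D1:**
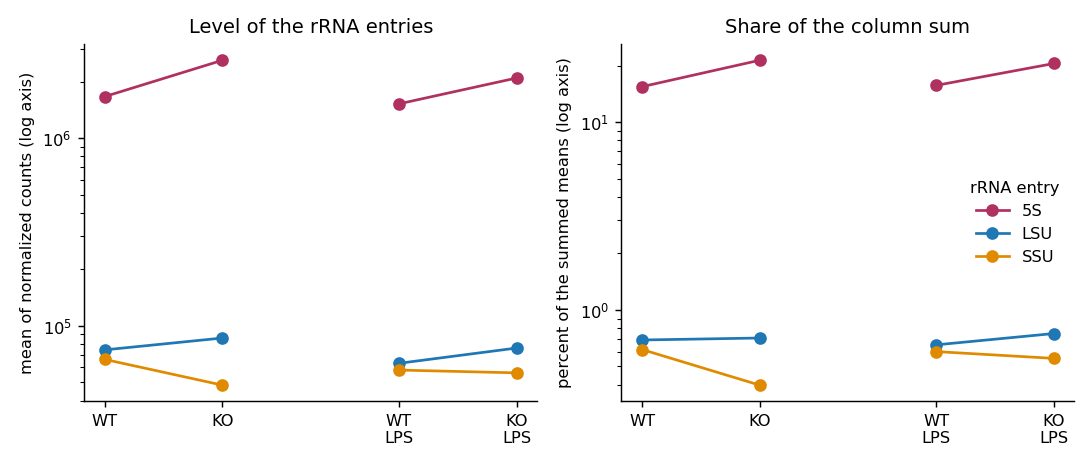
Mean of normalized counts (left) and share of the column sum in percent (right) of the 3 rRNA entries, both on log axes, in wild-type (WT) and 5-LO knockout (KO) MM6 cells without and with LPS. Each point is 1 mean deposited by the authors, with no error between replicates, and lines join the genotypes of a table. 5S lies between 1522660 and 2600090 and the other entries lie between 48286.8 and 86115.7.

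As a ratio of knockout to wild type without LPS, 5S stood at 1.56, a log2 ratio of 0.64 (95% counting interval 0.641 to 0.644). LSU stood at 1.16, a log2 ratio of 0.21 (0.202 to 0.218), and SSU at 0.729, a log2 ratio of -0.46 (-0.466 to -0.446). With LPS the log2 ratios were 0.46 (0.456 to 0.460) for 5S, 0.27 (0.262 to 0.280) for LSU and -0.05 (-0.060 to -0.040) for SSU. At the deposited scaling, 5S and LSU were on the higher side in both tables, and the side of LSU turned under 1 further scaling given below. The ratio of SSU with LPS was 0.966 at the deposited scaling, and its log2 ratio was -0.29 when the sums of mature miRNAs were made equal.

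Past a 1.5-fold difference, 1 of the 3 members was higher without LPS (5S) and 0 were lower at the deposited scaling, but 5S was under this fold in 3 of 4 other scalings and SSU was past it on the lower side in 2. Among all 914 entries above 0 in both genotypes of that table, 17.1% were at least 1.5-fold higher and 19.9% at least 1.5-fold lower. With LPS, 0 of the 3 members passed this fold in either direction, beside 16.9% higher and 20.7% lower of 883 entries. Of the other 215 entries with both means at 1000 or more without LPS, 14 had a higher log2 ratio than 5S, 70 a higher one than LSU, and 28 a lower one than SSU. With LPS, 18 of 205 such entries had a higher ratio than 5S, 52 a higher one than LSU and 101 a lower one than SSU. The median log2 ratio of all entries above 0 was -0.013 without LPS and -0.025 with LPS, so the table as a whole was centred near 0.

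**Figure D2:**
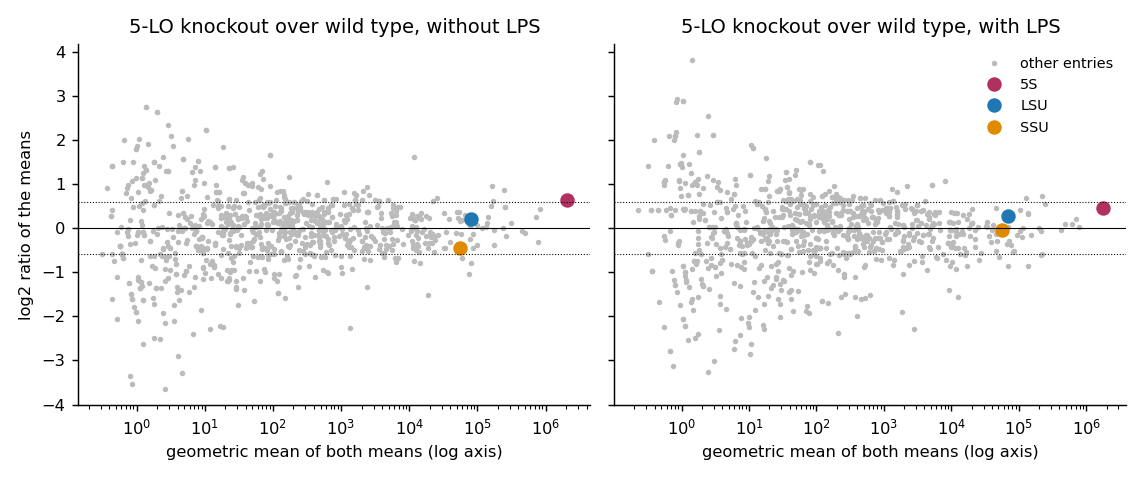
Log2 ratio of the knockout to the wild-type mean against the geometric mean of both (log axis) for each entry above 0 in both genotypes, without LPS (left, 914 entries) and with LPS (right, 883 entries). Gray points are other entries, coloured points the rRNA entries, and dotted lines mark a 1.5-fold difference. 5S is the most abundant entry of each panel and lies just past the upper line without LPS (0.64) and under it with LPS (0.46).

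At the deposited scaling, the log2 ratio of 5S was 0.19 lower with LPS than without (-0.19, counting interval -0.187 to -0.183), that of LSU was 0.06 higher (0.049 to 0.073) and that of SSU was 0.41 higher (0.392 to 0.420). These differences move with the scaling of the genotypes by more than the counting intervals. Over the other 4 scalings described further on, they ran from -0.28 to -0.08 for 5S and from 0.31 to 0.51 for SSU. For LSU they ran from -0.04, at equal sums of mature miRNAs, to 0.17, so its direction depends on the scaling. The tables were normalized separately and share no column, so only the ratios within each table were set side by side. Whether LPS changes the ratio was not tested, since this needs values of single libraries.

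Ratios between members within a column do not depend on the scaling of the columns. Without LPS, 5S was 25.1 times as high as SSU in wild-type cells and 53.8 times in the knockout, which differ by 1.10 on the log2 scale (95% counting interval 1.09 to 1.11). 5S was 22.4 and 30.2 times as high as LSU, a log2 difference of 0.43 (0.424 to 0.441), and LSU was 1.12 and 1.78 times as high as SSU, a log2 difference of 0.67 (0.653 to 0.679). The members thus did not move as a block, with SSU lowest relative to the others in knockout cells. With LPS the log2 differences had the same signs and were smaller, at 0.51 for 5S to SSU (26.2 to 37.2), 0.19 for 5S to LSU (24.1 to 27.5) and 0.32 for LSU to SSU (1.09 to 1.36). In the wild-type columns alone, these ratios were close to each other in both tables, with 5S to SSU at 25.1 and 26.2.

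Per length of the mature rRNA, the gap between 5S and the SSU and LSU entries was wider still. Using RefSeq lengths (121 bases for 5S, 1869 for 18S and a median of 5066 for 28S), 5S had 388 times the mean of SSU per base in wild-type and 832 times in knockout cells without LPS, and 405 and 575 times with LPS. Per base, LSU had less signal than SSU in all 4 groups, at 0.415 and 0.658 times SSU without LPS and 0.401 and 0.500 times with LPS in wild-type and knockout cells. Intact ribosomes hold these rRNAs in equal numbers, and the values here describe what entered the libraries. A value per base is not a number of molecules, since a whole 5S fits the size window and whole 18S and 28S rRNAs do not.

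Without LPS, 5S held 15.5% of the wild-type sum against 21.4% of the knockout sum, a difference of 5.93 percentage points. With LPS its share was 15.7% and 20.6%, a difference of 4.84 points. LSU made up 0.692% and 0.709% without LPS and 0.652% and 0.749% with LPS. SSU made up 0.616% and 0.398% without LPS and 0.600% and 0.552% with LPS. Of the rRNA signal alone, 5S took 92.2% (wild type) and 95.1% (knockout) without LPS, and 92.6% and 94.0% with LPS. All rRNA entries together made up 16.8% of the wild-type column without and 16.98% of that with LPS, and 22.5% and 21.9% of the knockout columns.

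Set against other RNAs of its column, 5S had 1.91 times the mean of U29 in wild-type and 3.71 times in knockout cells without LPS. U29, a snoRNA, had the next highest wild-type mean after 5S in both tables (871321 and 782402 normalized counts). With LPS the ratio was 1.95 and 2.62. U29 itself had a lower mean in the knockout without LPS (701208 normalized counts, log2 ratio -0.31, rank 4) and a similar one with LPS (798217, log2 ratio 0.03). Against the sum of all snoRNAs, 5S stood at 0.240 and 0.360 times without LPS, a log2 difference of 0.58 beside 0.96 for U29, and at 0.245 and 0.342 times with LPS. The single 5S entry was close to the sum of all piRNA entries in wild-type cells (0.961 times without and 0.997 times with LPS) and stood above it in knockout cells (1.37 and 1.36 times). Against the sum of all mature miRNAs, which with their precursors were the aim of the size selection, 5S stood 16.3 times as abundant in wild-type and 22.9 times in knockout cells without LPS, and 16.3 and 19.0 times with LPS. Without miR-3607-5p and miR-3607-3p in that sum, 5S stood at 28.7 and 35.7 times without LPS and at 28.1 and 30.8 times with LPS.

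At the deposited scaling, the rRNA entries also carried most of the difference between the column sums. Without LPS, the knockout sum exceeded the wild-type sum by 1385487 normalized counts, of which 928526 (67.0%) were rRNA. With LPS the knockout sum was 484715 higher. The rRNA entries were 579622 higher in the knockout, and the sum of all other entries differed by -94907. Without LPS, removing the rRNA entries took the log2 ratio of the column sums from 0.17 to 0.07. With LPS it went from 0.07 to -0.017, so its direction turned at the deposited scaling. This turn depends on the scaling, since the median log2 ratio of all entries above 0 with LPS, -0.025, was lower than -0.017.

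Removing the rRNA entries multiplied the share of each other entry by the same factor within a column. Without LPS this factor was 1.20 for the wild-type and 1.29 for the knockout column, and it was 1.20 and 1.28 with LPS. Every ratio of knockout to wild-type shares therefore moved up by a constant, 0.10 on the log2 scale without and 0.09 with LPS. Of the 911 other entries above 0 in both genotypes without LPS, 569 (62.5%) had a lower share in knockout cells before the removal and 519 (57.0%) after it, since 50 entries went from lower to higher. With LPS, the numbers were 482 and 444 of 880, with 38 entries passing from lower to higher.

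Among the types, snoRNAs moved by the most percentage points. Without LPS they made up 64.4% of the wild-type column against 59.4% of the knockout column, a difference of -4.97 percentage points, and without rRNA it was 77.4% and 76.7%, a difference of -0.69 points. With LPS, the snoRNA shares were 64.2% and 60.2% with the rRNA entries and 77.3% and 77.1% without them, so the difference went from -3.99 to -0.26 points, and to -0.080 points when the miRNA precursors were left out as well. The summed snoRNA means themselves were close in both genotypes (6925340 and 7214300 without LPS, log2 ratio 0.06).

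For piRNA entries the direction of the share turned. piRNAs are known as guides of PIWI proteins in germ cells. Without LPS they made up 16.1% of the wild-type column against 15.6% of the knockout column, which became 19.4% and 20.1% once rRNA was removed, so the difference went from -0.50 to 0.78 points. With LPS it went from -0.66 to 0.34 points. The highest piRNA entry, piR_001207, had a log2 ratio of 0.24 without and 0.10 with LPS.

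Mature miRNAs also changed direction without LPS, from 0.952% in wild-type and 0.934% in knockout cells (-0.018 points) to 1.14% and 1.20% (0.061 points). This turn rests on miR-3607-5p and miR-3607-3p. Without them the shares were 0.541% and 0.601%, higher in the knockout already before rRNA was removed, and 0.651% and 0.777% after it. With LPS they were higher in knockout cells either way, at 0.963% and 1.09% with rRNA and at 1.16% and 1.39% without it. miRNA precursors were higher in the knockout in both settings, by 0.038 and 0.12 points without LPS and by 0.13 and 0.23 points with LPS. tRNAs, the adaptors of translation, were lower in the knockout either way, at 0.616% and 0.426% without LPS before and 0.741% and 0.550% after the removal. With LPS the tRNA shares were 0.952% and 0.442% before and 1.15% and 0.566% after it. The scRNA entries (Y RNAs, of which HY4 was the highest) went from 0.310% and 0.218% to 0.372% and 0.281% without LPS. With LPS they went from 0.287% and 0.298% to 0.346% and 0.381%.

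**Figure D3:**
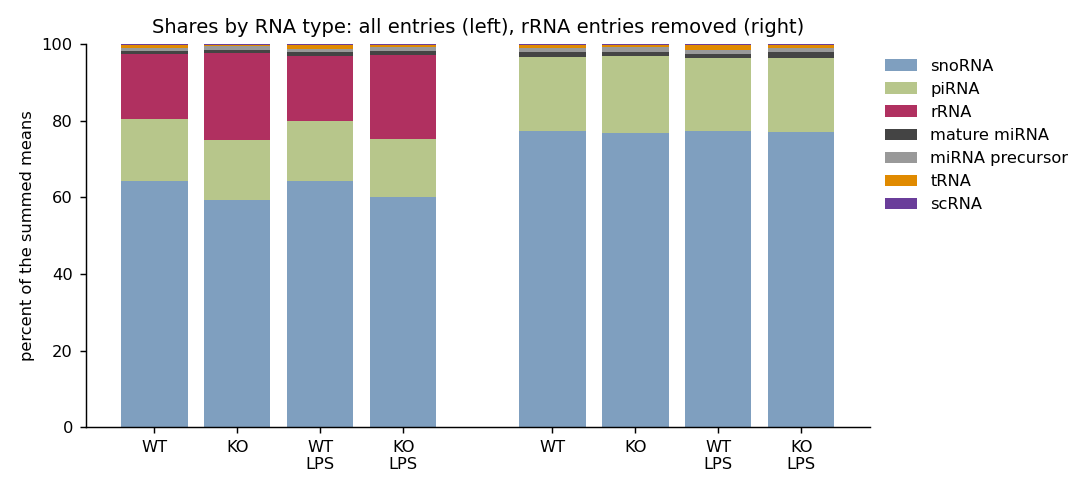
Share of the summed means in percent by RNA type in wild-type (WT) and 5-LO knockout (KO) MM6 cells without and with LPS, for all entries (left 4 bars) and after removal of the rRNA entries (right 4 bars). Each bar adds up to 100% of 1 column. The rRNA part is 16.8% and 16.98% in the wild-type bars and 22.5% and 21.9% in the knockout bars, and without it the snoRNA part lies between 76.7% and 77.4% in all 4 groups.

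When 5S alone was removed, the snoRNA shares without LPS were 76.2% and 75.6% (difference -0.57 points, beside -0.69 with all rRNA removed) and the difference with LPS was -0.38 points (beside -0.26). Without LPS, LSU and SSU together then made up 1.55% and 1.41%. With LPS, LSU and SSU together made up 1.49% and 1.64% of the sum without 5S.

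The log2 ratios of the members depend on how the genotypes are scaled to each other, and the side of the 1.5-fold line changed with it. When both genotypes were scaled to equal sums of the entries that are not rRNA, 5S without LPS had a log2 ratio of 0.57, which is under 1.5-fold. Scaling to equal sums of all entries gave 0.47 and to equal sums of mature miRNAs 0.50, both also under 1.5-fold. At equal sums of the entries that are not rRNA, 121 entries were at least 1.5-fold higher and 202 lower without LPS, against 156 and 182 as deposited, and 154 and 176 with LPS, against 149 and 183. SSU without LPS passed 1.5-fold on the lower side when the sums of all entries (-0.63) or of mature miRNAs (-0.60) were made equal. Through these 4 scalings 5S and LSU stayed higher and SSU lower in the knockout mean in both tables. The mature miRNA sum rests in good part on the entries miR-3607-5p and miR-3607-3p, which held 43.4% of it in wild-type cells without LPS. Their wild-type means there were 22198.4 and 22224.8, beside 22225.3 for the precursor mir-3607. The precursor mean is thus close to each entry and not to their sum, so the same reads appear to be counted in both. When miR-3607-5p and miR-3607-3p were left out of the equal miRNA sums, an alternative chosen after seeing the data, LSU turned to -0.12 without and -0.06 with LPS. 5S then stood at 0.32 and 0.13 and SSU at -0.78 and -0.38. LSU came near 0 at equal sums of all entries without LPS (0.04) and at equal mature miRNA sums with LPS (0.03).

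**Figure D4:**
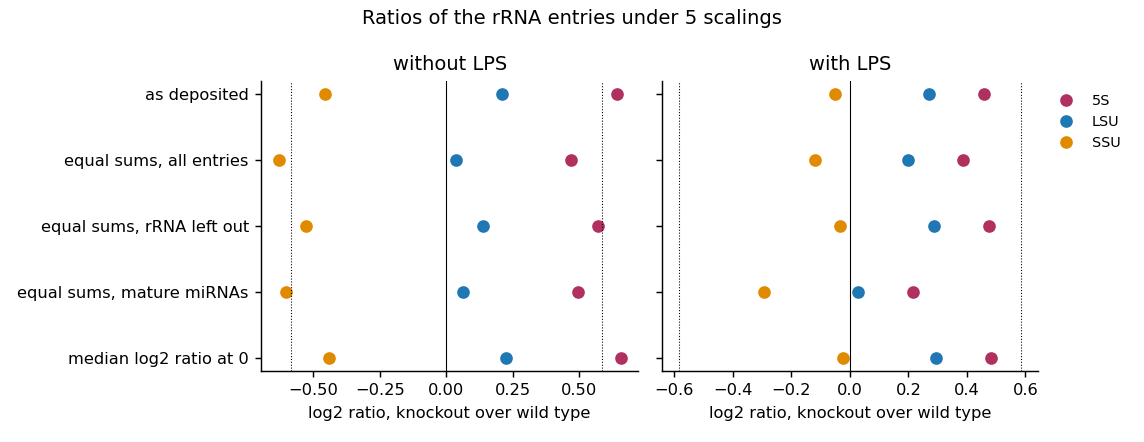
Log2 ratio of the knockout to the wild-type mean of the rRNA entries under 5 scalings of the genotypes, without LPS (left) and with LPS (right). Points are ratios of the authors' means with no replicate error, and dotted lines mark a 1.5-fold difference. 5S runs from 0.47 to 0.66 without and from 0.21 to 0.48 with LPS, and SSU stays under 0 in each row.

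The entries whose log2 ratios in both tables lay nearest to those of a member were looked up among 404 other entries with means of at least 100 in all 4 groups. Nearness was the larger of the 2 absolute differences in log2 ratio, over 2 values per entry. Closest to 5S were miR-30d-5p (0.66 without and 0.43 with LPS, larger difference 0.026) and its precursor mir-30d, whose signal overlaps that of the mature arm. miR-30d-5p is far less abundant, with means from 501.9 to 947.9. Closest to LSU were the snoRNA U93 (0.20 and 0.30) and the precursor mir-181c (0.17 and 0.27). Closest to SSU were a pair of piRNA entries led by piR_020326 (-0.43 and -0.06) and piR_009295 (-0.43 and -0.08), which share the other names they carry. With only 2 points per entry, such likeness is a description.

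Before rRNA reaches the ribosome its long precursor is cut, and a set of snoRNAs has been linked to this cutting, some of which also guide chemical modification of bases or riboses. U3 takes part in the early cuts that release the 18S rRNA, U8 acts in the maturation of the 28S and 5.8S rRNAs, and U14, U17, U22, E2, E3 and U13 have also been linked to processing of the precursor. The tables hold 14 such entries. Of these, 5 are near-identical copies of U3, among which reads cannot be assigned with certainty (U3-2 and U3-2B had the same wild-type mean, 2168.43 normalized counts without LPS). Their wild-type means ran from 129.9 to 6194.69 without LPS, and summed to 24190.7 in wild-type and 27454.9 in knockout cells.

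Of the 14 entries, 11 had a higher and 3 a lower mean in knockout cells in each table. The median log2 ratio was 0.36 without and 0.35 with LPS, beside 0.05 and 0.001 for all snoRNAs above 0 in both genotypes (282 and 285). With U3 counted once, 7 of 10 entries were higher in each table and the medians fell to 0.16 and 0.23. The share of all snoRNAs on the higher side was not counted, so these counts cannot be read as an excess over it. Past 1.5-fold, 1 was higher and 1 lower in each table, beside 28 higher and 28 lower of all 282 snoRNAs without LPS and 36 higher and 27 lower of 285 with LPS. U17a was the higher one, at 664.2 and 1052.71 normalized counts without LPS (log2 ratio 0.66) and at 586.1 and 905.7 with LPS (0.63). U13 was the lower one, at 5408.37 and 3448.59 without LPS (-0.65) and at 4700.58 and 2777.46 with LPS (-0.76).

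The entry named U3 had a wild-type mean of 6194.69 and a knockout mean of 8582.2 normalized counts without LPS (log2 ratio 0.47), and 5779.15 and 7485.76 with LPS (0.37). The other copies of U3 had log2 ratios from 0.36 to 0.42 without and from 0.44 to 0.53 with LPS. U8 stood at 0.18 and 0.34. U14A and U14B had log2 ratios of 0.15 and -0.15 without LPS and of -0.25 and -0.53 with LPS. U22 went the opposite way, from -0.49 without to 0.15 with LPS. These counts and medians describe 1 mean per genotype, and the copies of U3 are not independent of each other.

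**Figure D5:**
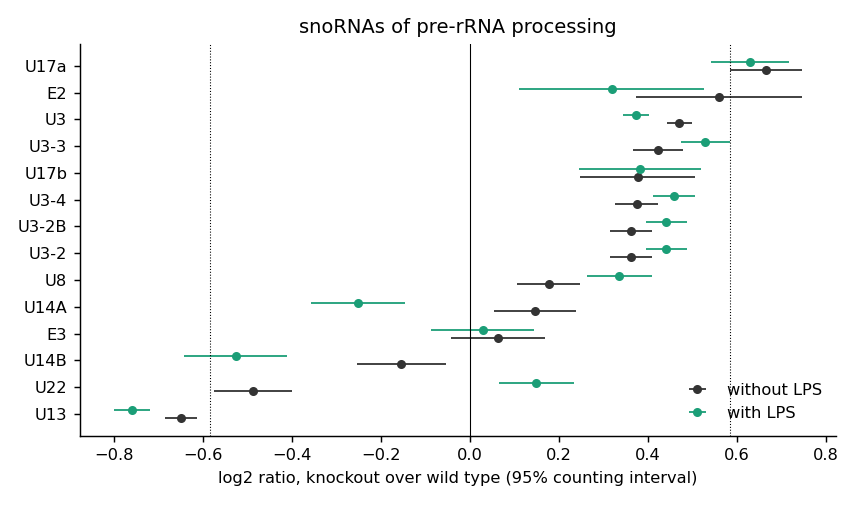
Log2 ratio of the knockout to the wild-type mean of the 14 snoRNA entries linked to processing of the rRNA precursor, without LPS (black) and with LPS (green). Bars are 95% counting intervals, which hold no spread between replicates, and dotted lines mark a 1.5-fold difference. The 5 U3 entries lie between 0.36 and 0.53, and U13 lies at -0.65 without and -0.76 with LPS.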

How the data were processed

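Small RNA of 12 libraries (4 groups of 3) was analysed from 2 deposited tables, 1 without and 1 with LPS. Libraries were made with a Lexogen small RNA kit, and after adapter trimming the authors used omiRas with hg19 for annotation. The signal columns deposited by the authors hold the mean of normalized counts of a genotype. Neither the handling of multiply mapped reads nor the scaling is given in the sources used here. The authors' log2 ratios, p-values and FDRs are also in the tables and were not used.

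No test could be fitted to 1 mean per genotype. Ratios have no pseudocount. Shares are percentages of a column sum, in which precursors count reads of mature miRNAs again. Some other entries also repeat each other's values. With LPS, the snoRNA SNORD125 and the precursor mir-3653 both had 411.538 and 588.733. The snoRNA copies HBII-52-17, HBII-52-18 and HBII-52-19 all had 2569.57 and 3702.46. Sums and shares of types can therefore count the same reads more than once. Size factors were fitted so that the means of at most 10 come out as whole reads, within rounding at 6 digits plus 2e-06. The 100% of values that did in every group is thus partly set by the fit, and after a shift of all values by 0.07% between 0% and 0.781% did. The largest was 1.41 and 1.84 times the smallest in wild-type and knockout libraries without LPS and 2.58 and 1.60 times with LPS. Intervals are 95% and cover counting error only. The recovery was also run on simulated data, and its outcome is not reported here. Depth per library is not known beyond these factors.

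The named entries were all rRNA entries, the listed snoRNAs, the highest entry of each other type, the neighbours in rank, and the 2 entries nearest in log2 ratio to each member. The members and lists were chosen with earlier results of these data known. Scaling, pseudocounts of 1 and 10, the denominator and a minimum mean of 10 were varied. Numbers of 5S loci come from GENCODE on GRCh37, and the 5S sequence is not reported here. Lengths come from RefSeq (GRCh38.p14). Calculations ran in Python 3.11.15 with pandas 2.3.3 and numpy 2.4.6, and plots in matplotlib 3.10.9.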

Additional observations from a re-analysis of the deposited data

How the results depend on the processing

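No paired analysis was possible because each column holds 1 mean per genotype, with the replicate numbers lost. Leaving out each library was not run for the same reason, since no rRNA mean is low enough for its reads to be recovered. Across the planned scalings and pseudocounts, 0 log2 ratios of rRNA entries changed sign, and pseudocounts of 1 and 10 moved them by less than the counting interval.

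Log2 ratios of knockout to wild type follow in the order 5S, LSU and SSU. Equal sums of all entries gave 0.47, 0.035 and -0.63 without LPS and 0.39, 0.20 and -0.12 with LPS. Equal sums of the entries that are not rRNA gave 0.57, 0.14 and -0.53 without and 0.47, 0.29 and -0.033 with LPS. Equal sums of mature miRNAs gave 0.50, 0.063 and -0.60 without and 0.21, 0.028 and -0.29 with LPS. Without miR-3607-5p and miR-3607-3p, a choice made after seeing the data, equal miRNA sums gave 0.32, -0.12 and -0.78 without and 0.13, -0.056 and -0.38 with LPS, so that LSU reversed. With the median ratio set to 0 they were 0.66, 0.22 and -0.44 without and 0.48, 0.30 and -0.025 with LPS.

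Shares in percent follow for wild-type and knockout cells without LPS and then for both with LPS. Leaving precursors out of the denominator gave 15.6, 21.6, 15.9 and 20.8 for 5S, 0.698, 0.716, 0.658 and 0.757 for LSU, and 0.621, 0.401, 0.605 and 0.558 for SSU. Leaving out U29 gave 16.8, 22.7, 17.1 and 22.3 for 5S, 0.753, 0.753, 0.709 and 0.813 for LSU, and 0.670, 0.422, 0.653 and 0.599 for SSU. Leaving out entries under 10 moved no share beyond its counting interval.

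The difference in snoRNA share after removal of rRNA was -0.60 points without and -0.080 points with LPS when precursors were also left out, and -0.57 and -0.38 points when 5S alone was removed. With means of at least 10 in both genotypes, 84 entries were at least 1.5-fold higher and 83 lower without LPS. With LPS, 83 were higher and 96 lower. Fewer entries were counted at this minimum, and the share of them past the fold is not given here. With U3 counted once, also chosen after seeing the data, the median log2 ratio of the snoRNAs linked to precursor processing was 0.16 without and 0.23 with LPS.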
